A study of Homo sapiens with 12 samples.

Results

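OF1, an inhibitor of the bromodomains of BRPF1, BRPF2 and BRPF3, was compared with its vehicle DMSO in A375 cells, an established human melanoma line. The comparison takes the 3 libraries labelled OF1 (1 µM) and the 3 labelled DMSO, which are 6 of the 12 libraries of the study, and sets them against each other over 15353 genes. The other libraries are 3 with the CDC7 kinase inhibitor XL413 (1 µM) and 3 with OF1 and XL413 together (1 µM each), and they serve as a second background for the same question. Every culture was kept in DMEM with fetal bovine serum and harvested at 24 h, and no genetic change is named for any group. The data therefore describe 1 line at 1 dose and 1 time. Libraries of a group are called biological replicates by the submitters. Separate cultures are not mentioned. Each p-value therefore weighs a difference between groups against the spread between libraries alone, which may be technical. That spread was estimated from all 12 libraries.

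BRPF1, BRD1 (also called BRPF2) and BRPF3 are scaffold proteins that hold together histone acetyltransferase complexes built around KAT6A, KAT6B or KAT7. Each scaffold carries a bromodomain, a pocket that binds acetylated lysine, and OF1 occupies that pocket without removing the protein. Several results concern the integrated stress response, in which phosphorylation of the translation factor eIF2 alpha lowers general protein synthesis and raises translation of the transcription factor ATF4. ATF4, paired with proteins of the C/EBP family, is known to raise genes for amino acid synthesis, amino acid import and the charging of tRNAs.

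Poly(A) RNA was sequenced, and each library held between 30499559 and 36062138 counts assigned to genes. The melanocyte lineage factor SOX10 stood at 322 to 386 CPM (read counts scaled to a common library size) and MITF at 35.4 to 44.4 CPM in the 6 libraries, while the pigment gene TYR had no count and MLANA and DCT stayed at or below 0.24 CPM. The leukocyte genes PTPRC, CD3E and TYROBP had at most 1 count in any of the 6 libraries, and CD14 stood at 0.27 to 0.839 CPM. Of the keratinocyte genes TP63 and CDH1 had at most 2 counts and KRT5 0.356 to 0.689 CPM, but KRT14 stood at 18 to 24.1 CPM. Fibroblast genes were measured as well, COL1A1 at 80.6 to 117 CPM and DCN at 5.89 to 8.15 CPM. Skeletal muscle transcripts were found in all 6 libraries, at levels given later beside the results they move with.

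Few genes were called for OF1 against DMSO, and most of these changed by little. With edgeR's quasi-likelihood test and a Benjamini-Hochberg adjusted p under 0.05, 89 genes rose and 87 fell, which is 176 of 15353 or 1.15% of those tested (0.580% risen and 0.567% fallen). The median log2 fold change was 0.26 over the risen genes and -0.20 over the fallen genes, against 0.00 over all tested genes. Of the risen genes 41 changed by more than 1.2-fold, 4 by more than 1.5-fold and 1, OSCAR, by more than 2-fold. Of the fallen genes 23 changed by more than 1.2-fold, 7 by more than 1.5-fold and 2 by more than 2-fold. All 176 had OF1 libraries that did not overlap the DMSO libraries, a pattern that 10.2% of all tested genes showed upward and 11.8% downward. At an unadjusted p under 0.05, 2209 genes differed (14.4%). This is the share to hold beside the counts of that kind given for single lists. More genes passed with DESeq2 and without OF1+XL413 libraries 2 and 3, as given at the end. On simulated counts 50.7% of genes changed 1.2-fold were recovered, so genes that did not pass may still have changed by that much. The calls depended on having 3 libraries a group: 54, 42 and 48 genes passed without DMSO replicate 1, 2 or 3, and 79, 44 and 69 without OF1 replicate 1, 2 or 3. The sign was the same for all 176 genes in every setting tried. Since their groups did not overlap, leaving out a library could not have turned it.

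**Figure D1:**
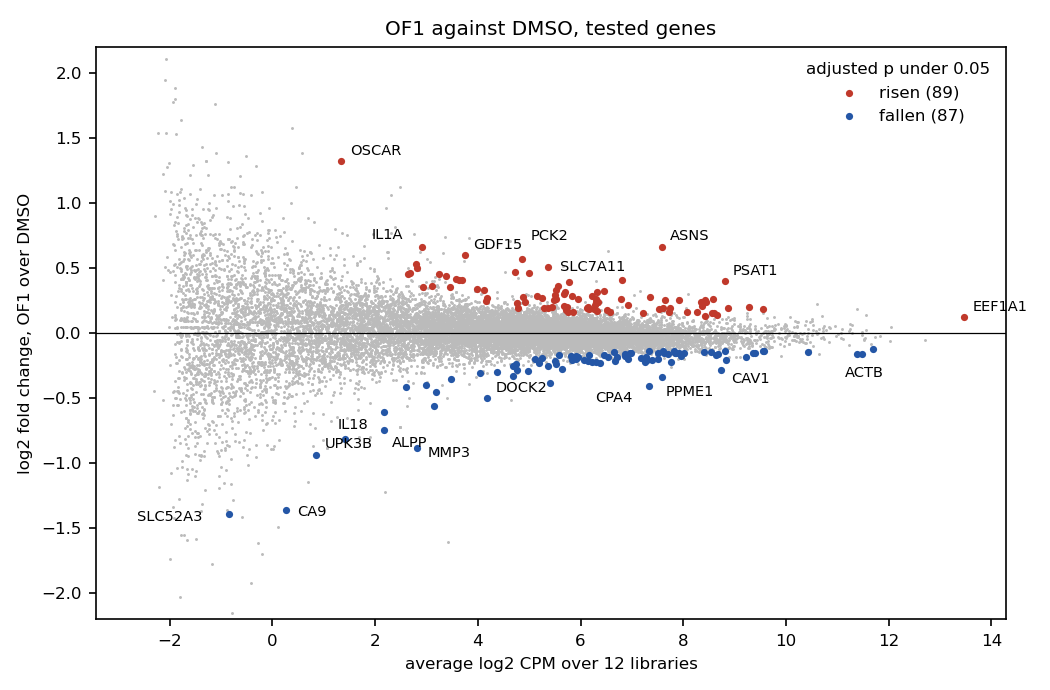
Log2 fold change of OF1 over DMSO (vertical axis) against average log2 CPM over 12 libraries (horizontal axis), 1 point per tested gene, with genes of adjusted p under 0.05 in red (89 risen) or blue (87 fallen). Most coloured points lie close to 0, OSCAR is the risen gene farthest from it, and 10 weakly expressed genes beyond 2.2 on the vertical axis are not drawn.

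The risen genes included enzymes that make amino acids and carry one-carbon units. Of 23 tested enzymes of this kind 11 rose and none fell (47.8% called, against 1.15% of all tested genes), with a list median of 0.16. Asparagine synthetase, ASNS (chromosome 7, 97851677 to 97928441), measured 154, 148 and 151 CPM with DMSO and 236, 242 and 238 CPM with OF1. Its log2 fold change was 0.66 ± 0.03 (SE), or 1.58-fold, and its adjusted p of 1.19e-08 was the smallest of the comparison. The 3 OF1 values lay far above the 3 DMSO values and close to one another.

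The ASNS promoter is known for an amino acid response element to which ATF4 binds, and the same arrangement of bases was therefore searched for in the promoters of the risen stress response, amino acid synthesis and transporter genes. The motif was TGATGNAAN, searched on both strands of the 250 bases before each start site. RefSeq (GRCh38.p14) held a promoter for 12 of the 18 genes and none for ALDH1L2, SLC7A11, NUPR1, GPT2, PYCR1 and SHMT2. The motif was taken from the ASNS element, so the match in ASNS was given in advance, and of the other 11 promoters CHAC1 alone held a match (9.09%). Both promoters are printed here because they show the known element and the further match, 5′ to 3′ along the gene's strand, with the match in capitals. ASNS is at chr7:97872409-97872658 on the minus strand, with its match 68 to 60 bases before the start. CHAC1 is at chr15:40953221-40953470 on the plus strand, with its match 210 to 202 bases before the start and reading TGATGNAAN on the opposite strand.
ASNS: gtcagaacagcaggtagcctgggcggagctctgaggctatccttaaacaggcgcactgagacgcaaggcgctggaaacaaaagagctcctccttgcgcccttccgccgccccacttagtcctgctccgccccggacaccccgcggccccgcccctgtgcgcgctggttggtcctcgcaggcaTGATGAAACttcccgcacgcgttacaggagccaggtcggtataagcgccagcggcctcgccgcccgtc
CHAC1: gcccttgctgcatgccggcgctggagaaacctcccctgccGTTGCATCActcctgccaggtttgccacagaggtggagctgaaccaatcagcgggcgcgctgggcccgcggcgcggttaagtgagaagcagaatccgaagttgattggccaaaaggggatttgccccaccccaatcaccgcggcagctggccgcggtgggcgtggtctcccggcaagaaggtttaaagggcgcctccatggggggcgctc
Without ASNS, a match stood in 184 of 11906 promoters of tested genes (1.55%) and in 866 of 27302 promoters in all (3.17%). Among the other tested members of the 3 lists, those that did not pass, 6 of 40 promoters held it (15%). Over all risen genes without ASNS, with CHAC1 and the other risen list members still counted, it was 2 of 70 (2.86%). Over all fallen genes it was 1 of 70 (1.43%). None of these shares was tested against another, and a match is only a match of letters in this window.

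Serine synthesis accounted for 2 of the risen enzymes. PSAT1, the transaminase of the pathway, measured 389, 391 and 386 CPM with DMSO and 507, 519 and 512 CPM with OF1 (0.40 ± 0.03, adjusted p = 2.19e-06). PHGDH, the first enzyme, went from 340 ± 6.4 to 408 ± 7.4 CPM (SD, n = 3 each; 0.26 ± 0.04, adjusted p = 0.00258). The last enzyme, PSPH, measured 23 and 25.6 CPM on average and did not pass (0.16 ± 0.06, adjusted p = 0.24). PHGDH, CBS, PYCR1, GPT2 and SHMT2 lie outside the naming rule and were named after their values were seen. The same holds for the synthetases EPRS, MARS, YARS and VARS, and for all genes given as not passing. Exempt are members of the list of BRPF scaffolds and acetyltransferase partners, and the member of smallest p of a list without a call.

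Of the mitochondrial folate enzymes, MTHFD2 (0.21 ± 0.03), ALDH1L2 (0.46 ± 0.07) and SHMT2 (0.16 ± 0.03) rose. Their cytosolic counterparts MTHFD1 and SHMT1 did not pass, at -0.04 ± 0.03 and -0.04 ± 0.04. ALDH1L2 measured 26.4, 27.9 and 26.2 CPM with DMSO and 38.2, 36.8 and 35.9 CPM with OF1. PCK2, the mitochondrial phosphoenolpyruvate carboxykinase, measured 23.5, 22.6 and 23.4 CPM with DMSO and 32.3, 35.3 and 35.8 CPM with OF1 (1.49-fold, adjusted p = 0.000273). For both genes the lowest OF1 library lay well above the highest DMSO library.

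The 2 enzymes that turn homocysteine into cysteine rose together, CBS by 0.29 ± 0.05 and CTH by 0.50 ± 0.09. CTH measured 6.45, 5.9 and 5.26 CPM with DMSO and 8.06, 8.88 and 8.02 CPM with OF1. The proline enzyme PYCR1 (0.23 ± 0.05) and the alanine transaminase GPT2 (0.21 ± 0.04) completed the 11. The aspartate transaminases GOT1 and GOT2 and the glutamine synthetase GLUL did not pass, with log2 fold changes between -0.06 and 0.08. ASNS, PSAT1, PHGDH, MTHFD2, ALDH1L2 and PCK2 passed whichever of the 6 libraries was left out. CTH and GPT2 passed in 3 of those 6 fits, CBS in 2, PYCR1 in 1 and SHMT2 in none, and without each library in turn SHMT2 stayed between 0.14 and 0.17.

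**Figure D2:**
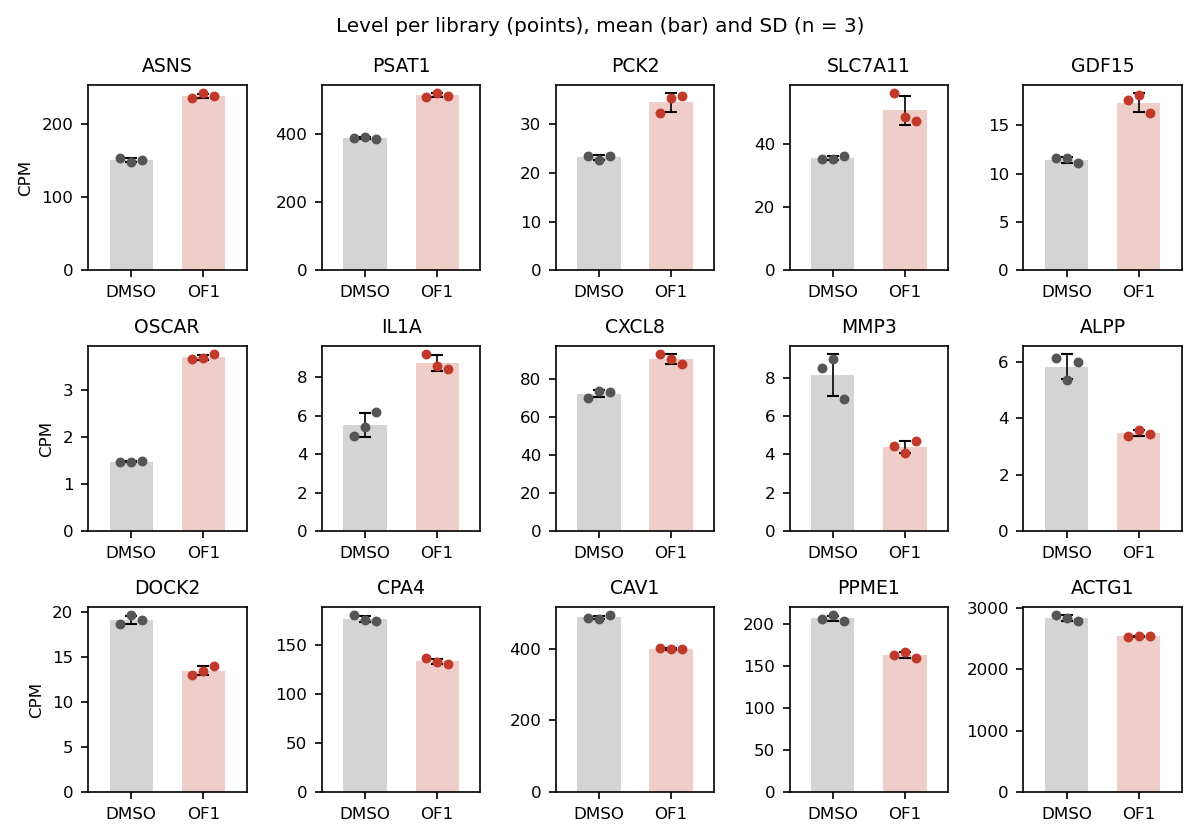
CPM of 15 genes in each DMSO and OF1 library (points), with the mean (bar) and SD (line, n = 3) and axes that start at 0. In each panel the 3 OF1 libraries lie on one side of the 3 DMSO libraries, from ASNS at 151 against 239 CPM on average to ACTG1 at 2831 against 2537 CPM.

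Among 22 regulators and effectors of the integrated stress response, 5 rose and none fell, with a median of 0.13. GDF15, a stress-induced cytokine, measured 11.6, 11.6 and 11.1 CPM with DMSO and 17.7, 18.1 and 16.2 CPM with OF1 (0.60 ± 0.08, adjusted p = 0.00111). CEBPG, a C/EBP protein that pairs with ATF4, measured 35.2, 35.4 and 35.3 CPM with DMSO and 42.0, 42.5 and 43.0 CPM with OF1 (0.27 ± 0.04, adjusted p = 0.00485). Neither gene had overlapping groups, and both passed with any 1 of the 6 libraries left out.

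The other risen members were weaker calls. NUPR1, a small stress-induced nuclear protein, rose by 0.45 ± 0.08 and passed in 3 of the 6 fits with a library left out. VLDLR, a lipoprotein receptor, rose by 0.46 ± 0.10 and passed in none of the 6. CHAC1, which degrades glutathione, measured 5.94, 5.49 and 3.91 CPM with DMSO and 6.97, 7.74 and 7.47 CPM with OF1 (0.53 ± 0.12, adjusted p = 0.0495). DMSO replicate 3 was the low value of CHAC1, and without it the change was 0.37 and did not pass. Of the 6 fits with a library left out, CHAC1 passed only without DMSO replicate 1.

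ATF4 mRNA itself went from 344 to 376 CPM on average and did not pass (0.13 ± 0.04, adjusted p = 0.147). The effectors ADM2 (0.67 ± 0.16, adjusted p = 0.0518), SESN2 (0.21 ± 0.05, adjusted p = 0.0795) and PPP1R15A, which reverses eIF2 alpha phosphorylation (0.14 ± 0.04, adjusted p = 0.0904), lay just outside the threshold. TRIB3 stood at 0.13 ± 0.04 and DDIT3, which encodes CHOP, at 0.07 ± 0.08. ATF3 stood at -0.04 ± 0.07 and ATF5 at -0.11 ± 0.04. The eIF2 alpha kinases EIF2AK1, EIF2AK2, EIF2AK3 and EIF2AK4 ranged from -0.00 to 0.13 and none passed. At an unadjusted p under 0.05, 13 of the 22 members differed, 12 of them upward.

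Of 19 amino acid transporters 2 rose and none fell, with a median of 0.09. SLC7A11, the cystine importer, measured 35.2, 35.2 and 36.3 CPM with DMSO and 56.1, 48.5 and 47.4 CPM with OF1 (0.51 ± 0.08, adjusted p = 0.00397). SLC1A4, a transporter of small neutral amino acids, measured 44.3, 46.9 and 47.8 CPM with DMSO and 59.9, 61.7 and 61.3 CPM with OF1 (0.40 ± 0.05, adjusted p = 0.00114). OF1 replicate 1 was the highest for SLC7A11, and both genes were higher in all 3 OF1 libraries than in any DMSO library. The glutamine transporters SLC1A5 (0.14 ± 0.03, adjusted p = 0.0598) and SLC38A1 (0.19 ± 0.05, adjusted p = 0.0594) lay near the threshold. The leucine transporter subunits SLC7A5 and SLC3A2 stood at 0.12 ± 0.04 and 0.10 ± 0.04 and did not pass. DESeq2 called 4 transporters risen.

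The aminoacyl-tRNA synthetases of the cytosol attach amino acids to their tRNAs. Of 20 tested 7 rose and 1 fell (40% called, median 0.08). WARS (tryptophan) measured 222, 220 and 215 CPM with DMSO and 264, 263 and 258 CPM with OF1 (0.26 ± 0.03, adjusted p = 0.000327). SARS (serine) went from 179 ± 1.1 to 213 ± 2.4 CPM and GARS (glycine) from 300 ± 4.6 to 354 ± 4.2 CPM (SD, n = 3 each), with log2 fold changes of 0.25 and 0.24. These 3 passed whichever library was left out.

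EPRS (0.19 ± 0.04), IARS (0.15 ± 0.03), MARS (0.14 ± 0.03) and YARS (0.13 ± 0.03) also rose, with smaller changes. EPRS passed in 1 of the 6 fits with a library left out, and IARS, MARS and YARS in none. VARS, the valine enzyme, fell by 0.15 ± 0.03 and passed in none of the 6 either. The synthetases AARS, HARS, KARS, QARS and RARS ranged from -0.06 to 0.06 and did not pass. None of the 17 synthetases of mitochondria passed with edgeR or DESeq2, the median was -0.03 and 2 differed at an unadjusted p under 0.05, both downward.

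Taken over their distinct members, the stress response, amino acid synthesis, transporter and cytosolic synthetase lists held 84 tested genes, of which 25 rose and VARS fell. These 25 made up 28.1% of all risen genes, and the 84 made up 0.547% of all tested genes. The lists were chosen with earlier results known, so these shares are a description. Of 20 endoplasmic reticulum chaperone and unfolded protein response genes XBP1 rose (0.30 ± 0.05) and the chaperone CALR fell (-0.14 ± 0.03), with a median of -0.05. XBP1 passed in 2 of the 6 fits with a library left out and CALR in none. The 16 heat shock genes had a median of -0.06 and no member that passed with edgeR, 6 lower at an unadjusted p under 0.05 and 2 fallen by DESeq2. Of 20 NRF2 antioxidant genes SLC7A11 and the quinone reductase NQO1 (0.20 ± 0.04) rose, the latter in 2 of the 6 fits with a library left out.

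OSCAR (chromosome 19, 54094668 to 54100803), which encodes an immunoglobulin-like receptor for collagen, was the risen gene of largest fold. It measured 1.47, 1.47 and 1.49 CPM with DMSO and 3.65, 3.68 and 3.75 CPM with OF1. The change was 2.5-fold (1.32 ± 0.17, adjusted p = 0.00111), and the groups did not overlap. DESeq2 gave no adjusted p for OSCAR, nor for ALPP, IL18, CA9, SLC52A3, UPK3B and ANKRD2, which are described below. Its tested neighbours did not pass: the nearest, NDUFA3, stood at 0.00 ± 0.10, TFPT at -0.11 ± 0.07 and VSTM1 at -0.10 ± 0.13.

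Among 18 cytokines and chemokines 3 rose and 1 fell, with a median of 0.07. IL1A measured 4.98, 5.4 and 6.19 CPM with DMSO and 9.19, 8.56 and 8.41 CPM with OF1 (0.66 ± 0.10, adjusted p = 0.00291). CXCL8, the neutrophil chemokine, measured 70.1, 74.0 and 73.3 CPM with DMSO and 93.0, 90.6 and 88.1 CPM with OF1 (0.32 ± 0.05, adjusted p = 0.00247). IL24 rose by 0.33 ± 0.06. IL18 measured 5.7, 4.66 and 5.23 CPM with DMSO and 3.5, 3.84 and 2.88 CPM with OF1 and fell by 0.61 ± 0.12. IL1A and CXCL8 passed whichever library was left out, and IL24 and IL18 in 2 of the 6 fits.

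The chemokines CXCL1, CXCL2 and CXCL3 stood at 0.09 ± 0.04, 0.25 ± 0.13 and 0.26 ± 0.11 and did not pass. Of the tested genes beside IL1A on chromosome 2, the nearer, CKAP2L, which encodes a spindle protein and was named after its value was seen, rose by 0.20 ± 0.04 (adjusted p = 0.0252) and passed in none of the 6 fits with a library left out. IL1B, on the other side, stood at 0.44 ± 0.16 (adjusted p = 0.219). Among 17 NF-kB subunits and feedback targets only TNFAIP2 passed, and it fell by 0.24 ± 0.05 and passed in 1 of the 6 fits with a library left out. Of 32 interferon-stimulated genes none passed with edgeR or DESeq2, 5 differed at an unadjusted p under 0.05 and the median was -0.11, with OASL, the member of smallest p, at -0.82 ± 0.26 (adjusted p = 0.156). That median was -0.04 without DMSO replicate 1, -0.15 and -0.18 without DMSO replicate 2 or 3 and -0.17 without OF1 replicate 1.

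Further secreted and surface proteins were among the risen genes that passed whichever library was left out, and all but VEGFA, ESM1, PMEPA1 and SEL1L3 were named after their values were seen. VEGFA, the angiogenic factor, measured 39.6, 41.5 and 43.4 CPM with DMSO and 50.2, 52.8 and 53.8 CPM with OF1 (0.33 ± 0.04, adjusted p = 0.00169). VGF, a neuropeptide precursor, measured 98.4, 106 and 113 CPM with DMSO and 134, 131 and 156 CPM with OF1 (0.41 ± 0.06). ESM1, a secreted proteoglycan, went from 55.8 ± 1.0 to 68.0 ± 0.79 CPM (SD, n = 3 each). The groups of none of these genes overlapped.

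IL13RA2, a decoy receptor for IL-13, rose by 0.26 ± 0.03, and TFPI2, a protease inhibitor, by 0.32 ± 0.05. CEMIP and TMEM2, both of which act on hyaluronan, rose by 0.26 ± 0.04 and 0.24 ± 0.04. PMEPA1, a feedback inhibitor of TGF-beta signalling, rose by 0.26 ± 0.03, and FAM129A (now NIBAN1) by 0.32 ± 0.04. The retinaldehyde dehydrogenase ALDH1A3 rose by 0.18 ± 0.03, from 707 ± 1.5 to 804 ± 7.1 CPM (SD, n = 3 each). SEL1L3 rose by 0.47 ± 0.06. FLRT2 (0.45 ± 0.10), COPZ2 (0.44 ± 0.09) and GRB10 (0.42 ± 0.09), an adhesion protein, a coat protein and a signalling adaptor, were of similar size but passed in none, 1 and 1 of the 6 fits with a library left out. EEF1A1, a translation elongation factor whose many processed copies could take part of its reads, rose by 0.12 ± 0.02 from 10491 to 11404 CPM, and passed in 1 of those 6 fits.

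Among the fallen genes, MMP3 (chromosome 11, 102835801 to 102843609), a matrix protease, measured 8.48, 8.98 and 6.9 CPM with DMSO and 4.42, 4.07 and 4.68 CPM with OF1 (-0.89 ± 0.10, adjusted p = 0.000647). Its neighbours in the protease cluster, MMP1 and MMP10, stood at -0.09 ± 0.07 and -0.40 ± 0.39 and did not pass. Of 18 matrix metalloproteinases and inhibitors the only other call was the inhibitor TIMP1, which rose by 0.19 ± 0.04 and passed in 1 of the 6 fits with a library left out. Of 21 collagens and matrix proteins the only call was COL5A2, which fell and passed in 4 of those 6 fits. Its log2 fold change lay between -0.23 and -0.19 over these fits. ALPP, the placental alkaline phosphatase, measured 6.15, 5.34 and 6.01 CPM with DMSO and 3.38, 3.58 and 3.45 CPM with OF1 (-0.75 ± 0.10, adjusted p = 0.002). ALPP has near-identical copies beside it, and how its reads were shared among them is uncertain.

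DOCK2, an activator of the GTPase RAC, measured 18.7, 19.6 and 19.1 CPM with DMSO and 13, 13.5 and 14 CPM with OF1 (-0.50 ± 0.05, adjusted p = 0.000165). CPA4, a carboxypeptidase, measured 180, 175 and 175 CPM with DMSO and 136, 133 and 131 CPM with OF1 (-0.41 ± 0.03, adjusted p = 3.05e-05). PPME1, a methylesterase of the phosphatase PP2A, measured 205, 210 and 203 CPM with DMSO and 163, 167 and 159 CPM with OF1 (-0.34 ± 0.03, adjusted p = 6.82e-05). For each of these genes every OF1 library lay below every DMSO library by several times the spread within a group.

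CAV1, the coat protein of caveolae, measured 485, 482 and 492 CPM with DMSO and 402, 399 and 398 CPM with OF1 (-0.28 ± 0.03, adjusted p = 0.000131). Other fallen genes that act on membranes and the cytoskeleton are given here as single genes, chosen after their values were seen and not tested as a group. PTRF (now CAVIN1), a second caveolar coat protein, fell by 0.19 ± 0.03 and EHD2, which binds the neck of caveolae, by 0.22 ± 0.04. The actin genes ACTB and ACTG1 both fell by 0.16, ACTG1 from 2831 ± 44 to 2537 ± 11 CPM (SD, n = 3 each), and reads of these near-identical genes may be divided between them. COTL1, which binds actin filaments, and the focal adhesion protein TNS3 both fell by 0.21 ± 0.03. LIMK1, a kinase that regulates cofilin, fell by 0.28 ± 0.05. MYLK (-0.25 ± 0.05), SYNPO (-0.25 ± 0.05), CNN2 (-0.22 ± 0.04) and CNN3 (-0.15 ± 0.03), which encode myosin light chain kinase, synaptopodin and 2 calponins, fell too. In the list of 12 SRF targets and contractile genes, however, ACTB was the only call and the median was -0.04. CAV1, ACTG1, COTL1, TNS3 and CLUH, an RNA-binding protein of mitochondrial biogenesis (-0.22 ± 0.04), passed whichever library was left out, PTRF and LIMK1 in 4 of 6 fits, ACTB and CNN2 in 3, EHD2, MYLK and SYNPO in 1 and CNN3 in none.

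Of 21 keratinocyte and epithelial markers 3 fell and 1 rose, with a median of -0.09. SFN, or 14-3-3 sigma, measured 10.1, 10.9 and 11.4 CPM with DMSO and 7.82, 8.46 and 7.35 CPM with OF1 (-0.46 ± 0.07). AP1M2, an epithelial clathrin adaptor subunit, fell by 0.56 ± 0.10 and KRT14 by 0.30 ± 0.07. KRT81, a hair keratin with near-identical relatives among which reads could be divided, rose by 0.28 ± 0.06. SFN passed in 4 of the 6 fits with a library left out, AP1M2 in 2, KRT81 in 1 and KRT14 in none.

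Several fallen genes of large fold were measured at low levels. CA9, a carbonic anhydrase, measured 1.41, 2.0 and 1.11 CPM with DMSO and 0.415, 0.618 and 0.72 CPM with OF1 (-1.36 ± 0.26, adjusted p = 0.0237). SLC52A3, a riboflavin transporter, measured 0.704 ± 0.064 CPM with DMSO and 0.264 ± 0.068 CPM with OF1 (SD, n = 3 each) and fell by 1.39 ± 0.31. UPK3B fell by 0.94 ± 0.19 and ANKRD2 by 0.82 ± 0.17. The groups did not overlap for any of these, but CA9 passed in 2 of the 6 fits with a library left out, UPK3B in 1, and SLC52A3 and ANKRD2 in none. The other members of the 30 hypoxia and glycolysis genes gave 2 calls, VEGFA upward and the glycolytic enzyme PKM downward (-0.12 ± 0.03). PKM passed in none of the 6 fits. Of the 30, 10 differed at an unadjusted p under 0.05, 1 of them upward, and 13 had all OF1 libraries below all DMSO libraries.

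MISP (-0.40 ± 0.08), CAPS (-0.38 ± 0.07), HRCT1 (-0.41 ± 0.09), SERPINB7 (-0.33 ± 0.07) and the collagen hydroxylase P3H2 (-0.31 ± 0.06) were further falls of more than 1.2-fold. CAPS passed in 3 of the 6 fits with a library left out, SERPINB7 in 1 and the others in none. In lipid synthesis the regulator SREBF1 fell by 0.23 ± 0.04 and the desaturase SCD by 0.16 ± 0.03, and they passed in 2 and none of the 6 fits. The 24 genes of cholesterol synthesis and uptake had a median of -0.06. None of these passed with edgeR, 9 were lower at an unadjusted p under 0.05 and DESeq2 called 1 fallen.

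Cell cycle genes changed little. Among 30 G2/M genes, with a median of -0.01, the calls were all downward: AURKA (-0.14 ± 0.03) and PLK1 (-0.18 ± 0.03), which are mitotic kinases, and CDC20 (-0.17 ± 0.04), which activates the anaphase-promoting complex. Of 30 origin and replisome genes only the helicase subunit MCM2 passed (-0.14 ± 0.03), and the list median was -0.05. In this list 23 genes were below 0, and 10 had all OF1 libraries below all DMSO libraries. At an unadjusted p under 0.05, 10 of the 30 differed, 1 of them upward. Of the G2/M genes 6 differed at that level, none upward. AURKA measured 216, 215 and 217 CPM with DMSO and 195, 196 and 196 CPM with OF1. The difference was small but larger than the spread within either group. None of the 4 genes passed when any 1 library was left out.

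The transcripts of the inhibited proteins did not pass. BRPF1 measured 48.4, 49.7 and 48.1 CPM with DMSO and 49.6, 46.9 and 47.6 CPM with OF1 (-0.02 ± 0.04, adjusted p = 0.868). BRD1 measured 28.3, 28.2 and 28.9 CPM with DMSO and 27.4, 24.5 and 24.0 CPM with OF1 (-0.17 ± 0.06, adjusted p = 0.167). BRPF3 measured 49.1, 46.1 and 47.4 CPM with DMSO and 43.2, 46.2 and 45.7 CPM with OF1 (-0.08 ± 0.04, adjusted p = 0.462). The groups overlapped for BRPF1 and BRPF3 but not for BRD1. A bromodomain inhibitor acts on the protein, so these levels do not check the treatment.

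The acetyltransferases KAT6A, KAT6B and KAT7 stood at -0.01 ± 0.07, 0.03 ± 0.06 and -0.01 ± 0.04. ING4, ING5, MEAF6, JADE1, JADE2 and JADE3, subunits of complexes of these enzymes, stood between -0.08 and 0.06. Over the 12 genes in the list of BRPF scaffolds and acetyltransferase partners, none passed with edgeR or DESeq2. Of these, 2 were lower at an unadjusted p under 0.05, and the median was -0.01. Of 29 other bromodomain genes BRD9, a subunit of a SWI/SNF complex, went from 49.2 ± 1.7 to 42.5 ± 1.7 CPM (SD, n = 3 each; -0.21 ± 0.04) and the corepressor TRIM28 fell by 0.13 ± 0.03. BRD9 passed in 2 of the 6 fits with a library left out and TRIM28 in none.

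HOX genes are classical targets of KAT6A complexes in development. Of 36 tested none passed with edgeR or DESeq2, 3 were higher at an unadjusted p under 0.05 and the median was 0.02, with HOXD8 nearest to a call (0.33 ± 0.10, adjusted p = 0.144). The 14 melanocyte differentiation genes had a median of 0.00, none passed with edgeR or DESeq2 and 2 had an unadjusted p under 0.05. The 18 genes of the AXL-high melanoma state gave 1 call, LOXL2 downward (-0.20 ± 0.04). Of 21 genes of MAPK output ETV1 (0.21 ± 0.04) and SPRY2 (0.16 ± 0.03) rose. Of 26 p53 targets SFN was the only call, and the median of the list was -0.00. Of 23 MYC and ribosome biogenesis genes SRM, a polyamine enzyme, fell by 0.21 ± 0.04. In that list 19 members were below 0, and 6 differed at an unadjusted p under 0.05, none upward. SRM passed in 2 of the 6 fits with a library left out, LOXL2 and SPRY2 in 1 and ETV1 in none. No gene of oxidative phosphorylation (28 tested) or of the replication-dependent histones (14 tested) passed with edgeR or DESeq2, with 1 and none at an unadjusted p under 0.05.

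**Figure D3:**
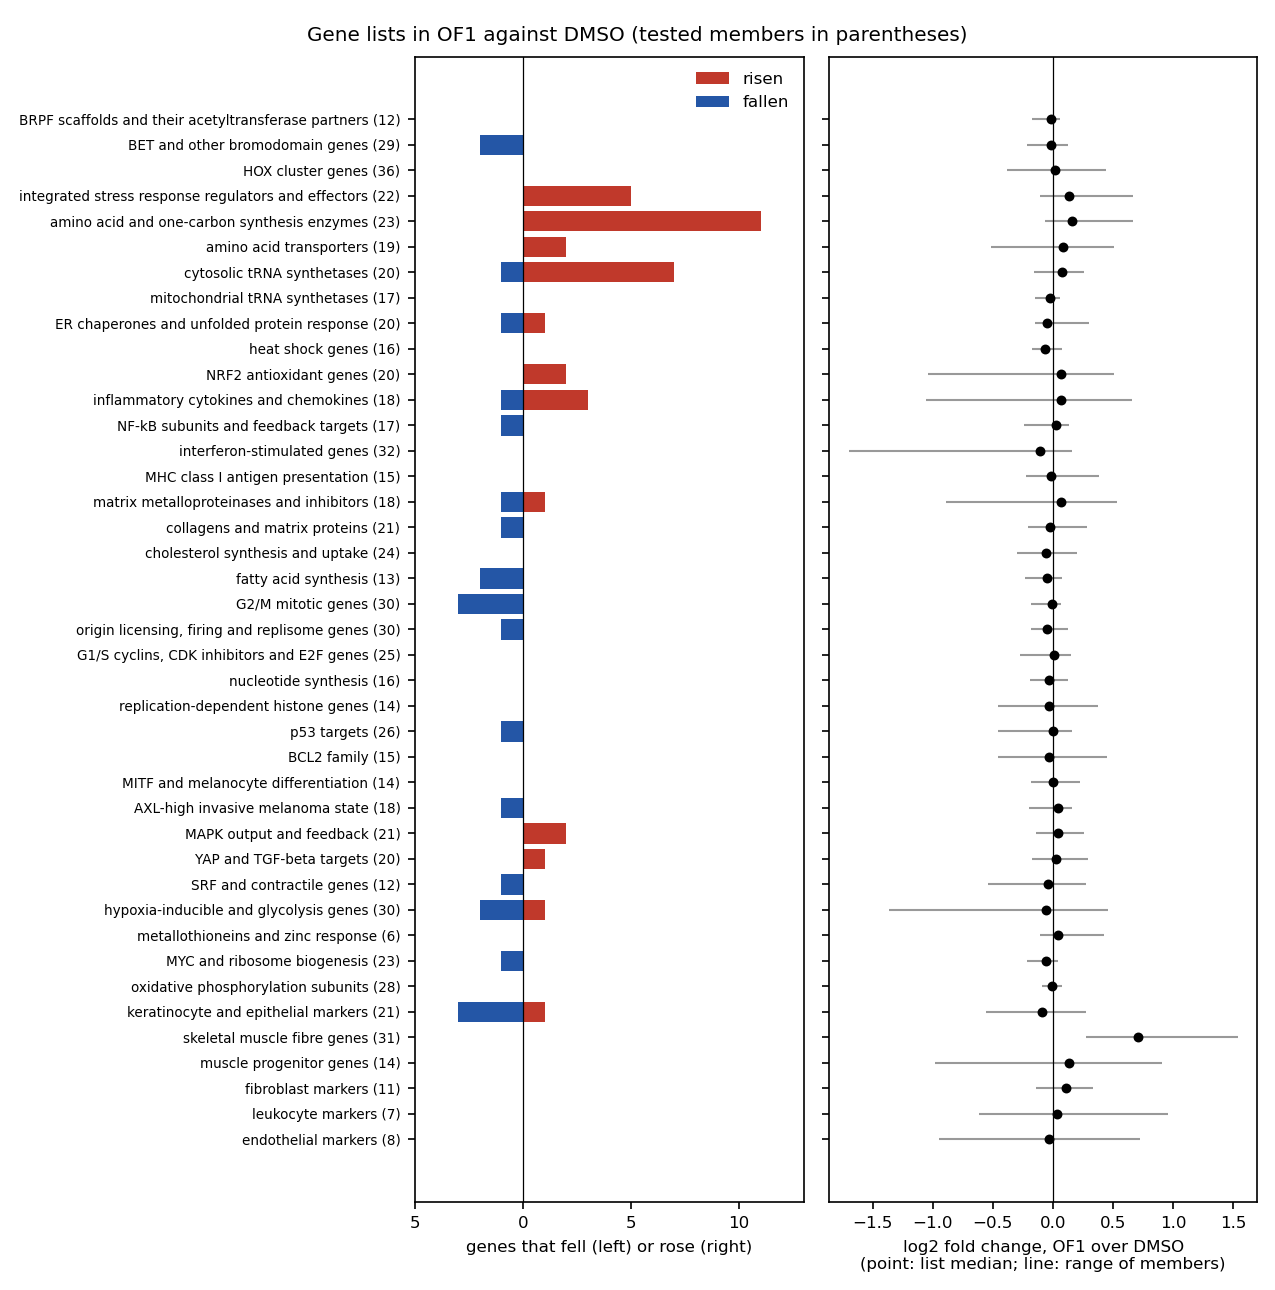
For each of 41 gene lists, the number of tested members that fell (blue, leftward) or rose (red, rightward) in OF1 against DMSO, and the median (point) and range (line) of the members' log2 fold changes. Amino acid synthesis enzymes (11 risen of 23) and cytosolic tRNA synthetases (7 risen and 1 fallen of 20) have the most calls, and skeletal muscle fibre genes have the highest median (0.71) and no call.

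Skeletal muscle fibre transcripts tended to be higher with OF1, but they varied widely within each group and none was called. All 31 tested muscle fibre genes had a log2 fold change above 0, with a median of 0.71, but none passed with edgeR or DESeq2 and 2 had an unadjusted p under 0.05. Their summed level was 124, 174 and 321 CPM in the DMSO libraries and 176, 358 and 400 CPM in the OF1 libraries, so the groups overlapped. Among their defining genes MYH3 ranged from 10.1 to 42.1 CPM with DMSO and from 19.5 to 49.0 CPM with OF1, and MYOG from 0.809 to 2.0 and from 1.63 to 3.36 CPM. In bulk RNA, more cells of a type and more of its RNA per cell cannot be told apart. With the mean log2 CPM of these 31 genes as a covariate, 61 genes passed (44 risen and 17 fallen), among them 42 of the 89 risen and 17 of the 87 fallen genes. Of the called genes described by name, the 37 that passed whichever library was left out kept their calls with this covariate. So did NUPR1, CBS, CTH, XBP1, IL24, PTRF, ACTB, LIMK1, CNN2, SFN and COL5A2, and the others lost them with an unchanged sign.

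Base composition also moved with direction. The median GC content of the transcripts was 46.3% for the risen genes, 59.3% for the fallen genes and 49.9% for all tested genes. Genes with a GC value and an average log2 CPM of at least 1 were split into 5 groups of equal size by GC. From the lowest to the highest GC, the median log2 fold change of these groups was 0.05, 0.02, 0.00, -0.04 and -0.05. With offsets for GC and length, an alternative added after the data were seen, 207 genes passed (98 risen and 109 fallen), among them 71 of the 89 and 54 of the 87. Of the genes described above, ACTB, CNN2, EHD2, VARS, TRIM28, HRCT1, MCM2, SPRY2 and EEF1A1 lost their calls with these offsets. The part of muscle transcripts and of GC content in the remaining results was not tested.

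A set of 37 genes passed whichever of the 6 libraries was left out, and 139 of the 176 lost their call in at least 1 such fit. The same 37 genes also passed with the muscle covariate and with the GC and length offsets. Of these, 27 had risen and 10 had fallen, and 13 of the risen belong to the stress response, amino acid and cytosolic synthetase lists: ASNS, PSAT1, PHGDH, MTHFD2, ALDH1L2, PCK2, SLC7A11, SLC1A4, GDF15, CEBPG, WARS, SARS and GARS. The 10 fallen were MMP3, ALPP, DOCK2, CPA4, PPME1, CAV1, CLUH, TNS3, COTL1 and ACTG1. Against a minimum change of 1.2-fold 5 of the 37 passed.

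**Figure D4:**
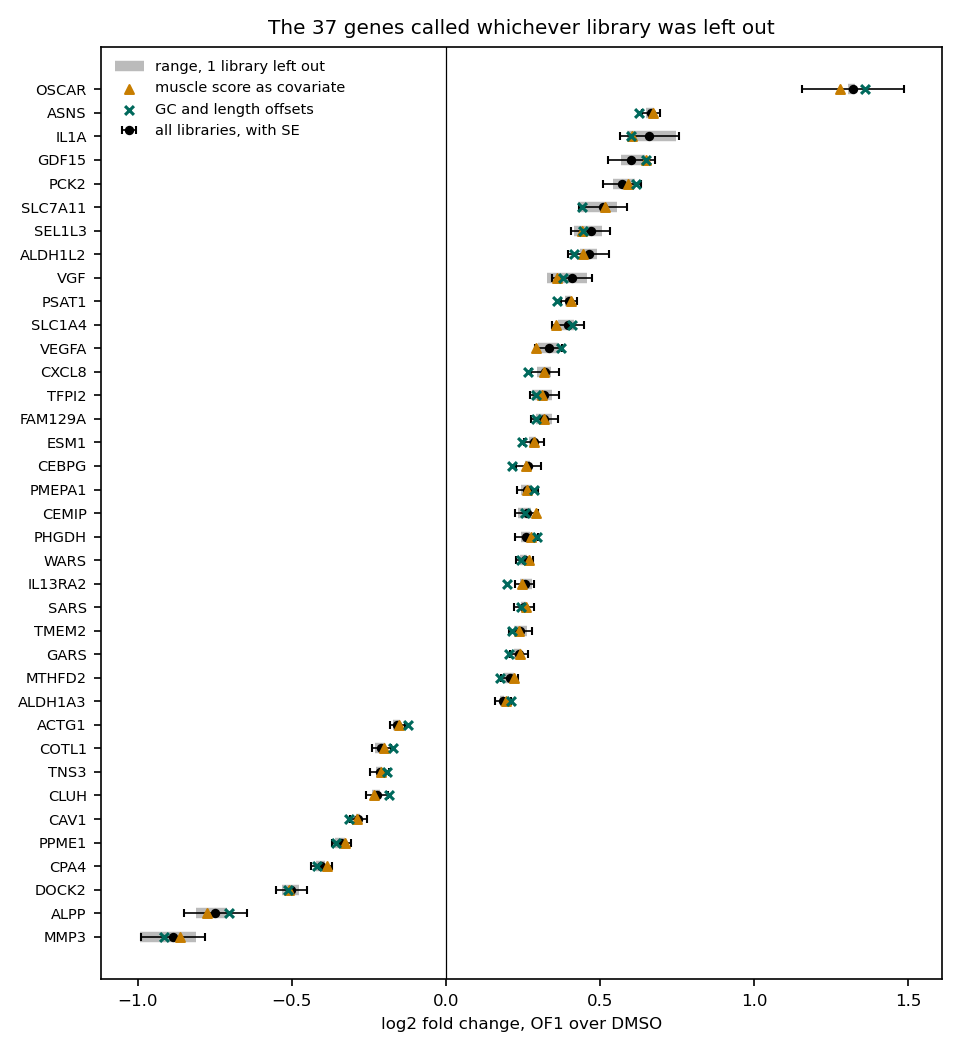
Log2 fold change of OF1 over DMSO (horizontal axis) for the 37 genes that passed whichever library was left out, with SE, the range over the fits with 1 library left out, and the values with the muscle covariate and with GC and length offsets. The values of each gene lie on the same side of 0, with OSCAR and MMP3 at the ends (1.32 and -0.89).

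OF1 was also given to cells that had XL413, and the combination against XL413 uses 6 libraries, none of them shared with OF1 against DMSO. There, 163 genes rose and 361 fell (3.41% of 15353 called, 1.06% and 2.35%). Of the 89 genes that rose with OF1 alone, 81 (91.0%) had a log2 fold change above 0, against 53.3% of all tested genes, and 50 (56.2%) also rose, which is 30.7% of the 163. Of the 87 that fell with OF1 alone, 85 (97.7%) were below 0, against 46.7% of all tested genes, and 28 (32.2%) also fell, which is 7.76% of the 361. No gene was called in opposite directions. The medians over the 89 and the 87 genes were 0.22 and -0.12, against 0.01 over all genes. In this comparison too the change moved with GC content. Over the GC groups used above the medians were 0.03, 0.02, 0.02, 0.01 and -0.03, from the lowest to the highest GC. The shares over all genes are not matched for GC, and its part in the shared direction was not tested. Of the 37 genes, 21 of the 27 risen and 9 of the 10 fallen were called in the same direction.

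**Figure D5:**
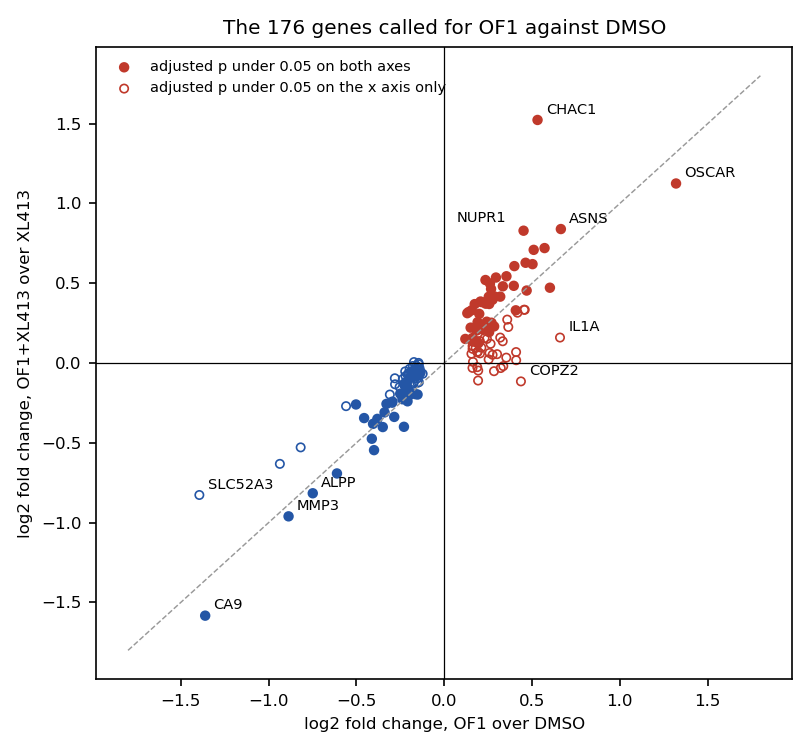
Log2 fold change of OF1+XL413 over XL413 (vertical axis) against that of OF1 over DMSO (horizontal axis) for the 176 genes called in the latter, filled where the gene also passed in the former, with equal changes on the dashed line. Of the risen genes 81 lie above 0 on the vertical axis and of the fallen genes 85 lie below it, with CHAC1 far above the line and COPZ2 slightly below 0.

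The muscle transcripts differed in the other direction there, with a median of -1.99 over the 31 fibre genes and 18 of them called lower. Also called lower were 14 of 21 collagens and matrix proteins (median -0.47), 6 of 11 fibroblast markers (median -1.04) and 6 of 14 muscle progenitor genes (median -1.50). OF1+XL413 libraries 2 and 3 stood apart, with a mean log2 CPM over the fibroblast markers of 1.43 and 1.75 against 2.62 in library 1 and 3.01 to 3.13 with XL413. Without these 2 libraries 155 genes passed in place of 524, and their part in the values given here was not tested. With the muscle covariate 34 genes passed, and without OF1+XL413 replicate 1 or 2 or XL413 replicate 1 or 2 the count was 828, 168, 191 and 197. ASNS measured 133, 137 and 136 CPM with XL413 and 239, 243 and 244 CPM with the combination (0.84 ± 0.03). MMP3 measured 10.1, 10.2 and 9.97 CPM with XL413 and 5.34, 4.79 and 5.42 CPM with the combination (-0.96 ± 0.10). Both genes thus changed in the same direction, without overlap of libraries, in either background. Of the amino acid enzymes 14 of 23 rose, of the stress response genes 11 of 22, of the cytosolic synthetases 12 of 20 and of the transporters 7 of 19.

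Whether the OF1 effect differed between both backgrounds was tested directly. No gene passed with edgeR's quasi-likelihood test (smallest adjusted p = 0.0797) or with limma-voom, while 1566 genes (10.2%) had an unadjusted p under 0.05 and DESeq2 called 108. With edgeR, 132 genes passed when no filter on low counts was used and 16 with GC and length offsets. The count was 1, 6 and 1 without DMSO replicate 1, DMSO replicate 3 or XL413 replicate 3, and 362 without OF1+XL413 replicate 1. Among the 176 genes 69 (39.2%) had an unadjusted p under 0.05. CHAC1 had a larger change with XL413 present, by 0.99 ± 0.17 on the log2 scale (adjusted p = 0.0869), and measured 4.03, 3.64 and 3.98 CPM with XL413 and 10.6, 11.4 and 11.6 CPM with the combination. PSAT1 differed by 0.21 ± 0.04 (adjusted p = 0.0896).

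CXCL8 differed the other way, by -0.35 ± 0.06 (adjusted p = 0.0896), and measured 92.3, 95.8 and 98.7 CPM with XL413 and 100, 91.2 and 89.5 CPM with the combination. IL1A differed by -0.50 ± 0.13 (adjusted p = 0.164), COPZ2 by -0.55 ± 0.12 and VGF by -0.39 ± 0.09. For CXCL8 the XL413 libraries already lay at the level of the OF1 libraries, and the 2 groups of the second background overlapped. The differences of OSCAR (-0.19 ± 0.24), MMP3 (-0.07 ± 0.14), CPA4 (0.02 ± 0.05) and CAV1 (-0.05 ± 0.04) did not pass either.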

How the data were processed

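RNA of A375 cells was measured in 12 libraries, 3 for each of 4 treatments. The authors deposited expected counts, RSEM's estimates of reads per gene. Of these, 10.6% were not whole numbers, and all were rounded. Per the submitters' processing notes, the tools were RSEM 1.2.15 and Bowtie2 2.1.0 and the genome was hg38. Settings, gene annotation and any use of strand were not given in the sources used here. Per the labels, libraries were made from poly(A) RNA with dUTP in the second strand.

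Genes passing filterByExpr (15353) were fitted with edgeR 4.0.16 in R 4.3.3 (TMM factors, quasi-likelihood F test, 4 group means over all 12 libraries, 8 residual degrees of freedom), with adjusted p under 0.05 over all of them as the threshold. The SE of a log2 fold change was obtained as its size over the root of its F statistic, and CPM uses the TMM library size. Mean ± SD is over 3 libraries. DESeq2 1.42.0, limma-voom (limma 3.58.1), other factors and filters, a replicate block, left-out libraries, a muscle covariate, a 1.2-fold minimum and GC and length offsets were tried. Transcript GC and length are from GENCODE, and positions and promoters from RefSeq on GRCh38.p14.

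The comparison, the 41 gene lists and the rule for named genes were chosen with earlier results of these data known. The rule takes, among called genes whose groups do not overlap and whose average log2 CPM reaches 1, the 15 upward and 15 downward changes of greatest size. It adds the 10 of smallest p and up to 4 called members of each list (its member of smallest p where none was called). It also adds up to 5 risen and 5 fallen genes of lower level and the list of BRPF scaffolds and acetyltransferase partners. Other genes were named after their values were seen. Uncharacterised loci are skipped. Of the lists without a call, the text gives the member of smallest p only for the BRPF, HOX and interferon-stimulated genes, and the others are not reported here. On simulated counts for OF1 against DMSO (15353 genes, 200 changed, 3 runs), 50.7% of genes changed 1.2-fold, 86.1% at 1.5-fold and 96.5% at 2-fold were recovered, with 21 calls among 45459 unchanged genes. The changed genes were drawn from those with a mean CPM of at least 1, so recovery at lower levels was not simulated. Counts were drawn independently, without the muscle and GC patterns of these data, and the rate of false calls in the data may differ. Pairs of libraries within the 2 groups differed by more than counting noise, so none was a copy of another.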

Additional observations from a re-analysis of the deposited data

How the results depend on the processing

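For OF1 against DMSO, 176 genes passed (89 risen, 87 fallen). RLE or upper-quartile factors, both other filters, limma-voom and GC and length offsets gave counts within 1.5 times of that (186 to 207). DESeq2 gave 350 (135 and 215), the muscle covariate 61 (44 and 17), the test against a 1.2-fold change 5 (4 and 1), and a fit to the 6 libraries alone 236 with 138 fallen. Without OF1+XL413 libraries 2 and 3, an alternative added after the data were seen, 414 passed (162 and 252), including all 176. Leaving out 1 library gave 42 to 79 genes, 29 to 47 risen and 13 to 32 fallen. The share risen, 50.6%, became 38.6% with DESeq2, 72.1% with the muscle covariate and 39.1% without those 2 libraries.

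For the combination against XL413 the count of 524 became 34 with the muscle covariate, 33 against a 1.2-fold change, 155 without OF1+XL413 libraries 2 and 3, and 168 to 828 with 1 library left out. For the difference of the OF1 effect, the count of 0 became 108 with DESeq2, 132 with no filter, 16 with GC and length offsets, 1 without OF1+XL413 libraries 2 and 3, and 0 to 362 with 1 library left out, the highest without OF1+XL413 replicate 1. The cause was not tested.

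The deviations of same-numbered DMSO and OF1 libraries from their group means had correlations across genes of 0.03, -0.13 and 0.10. Those of differently numbered libraries ranged from -0.20 to 0.18. With 3 libraries a group these values cannot decide whether the numbers mark pairs, and the labels do not say so. With the replicate block 126 genes passed for OF1 against DMSO (66 risen, 60 fallen) and 2 for the difference. With 3 libraries a group, genes changed 1.2-fold were recovered in about 50.7% of simulated cases, so a gene that did not pass may still have changed by that much.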
